A study of Mus musculus with 12 samples.

Results

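The Hox genes of paralog groups 6 to 8 comprise 8 of the 39 mouse Hox genes, namely Hoxa6, Hoxa7, Hoxb6, Hoxb7, Hoxb8, Hoxc6, Hoxc8 and Hoxd8. The rule that defines the set uses the number of each gene and no measured value. For each gene, accessible domains were collected in the promoter, taken as 1 kb on each side of the annotated transcription start site (TSS), in the gene body, and in the stretch from the TSS to the neighbouring Hox gene of higher number in the same cluster. ATAC-seq, which marks accessible DNA by transposase insertion, was performed on mouse embryonic stem cells differentiating as embryoid bodies towards spinal motor neurons, with 12 samples in 6 groups and 2 samples per group. EBs of the parental Ainv15(iCre) line were not yet patterned. Progenitors of the same line had received 2 days of retinoic acid (RA, 1 µM) and of SAG (0.5 µM), a Hedgehog pathway agonist. The 4 remaining groups received RA and SAG for 4 days. In 3 of these, the iHoxc6, iHoxc9 and iHoxc10 lines, doxycycline (Dox, 3 µg/mL) was given for the last 48 h to induce a Flag-tagged Hoxc6, Hoxc9 or Hoxc10 transgene. The No Dox group was the Ainv15(iFlag.Hoxc6) line without Dox. Each inducible line carried a single copy of its transgene at the HPRT locus, and embryoid bodies are mixed populations of cells.

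The deposited data held 1 list of accessible domains per group, made from both samples together, with no read counts, heights or p-values. The spread between replicates and the read depth are therefore unknown, no comparison between groups could be tested, and every difference below is a description of these 6 lists. Lists held between 56232 and 94875 domains. The No Dox list had another column layout and closer neighbouring domains (smallest gap 37 bp, against 103 bp in progenitors and more in the others), and its file name carried another day than its label. Series of sample records and possible calling settings cannot be told apart from the condition in any comparison with No Dox. The same holds for cell line, except in the comparison with iHoxc6, which was the same line. Stage markers followed their labels in part. Promoter domains covered 5 of 5 pluripotency genes in EBs and 2 of 5 at day 4 (Pou5f1, Nanog and Zfp42 held none), and 3 to 5 of 5 motor neuron genes in each list.

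Hox genes lie in 4 clusters, and their order along the chromosome follows the order in which they are expressed along the body axis. RA and Hedgehog signals give spinal progenitors their position and identity, and retinoic acid on its own favours anterior Hox genes, whereas the central genes of groups 6 to 8 act in the brachial and trunk spinal cord. HOXC6 marks motor neurons at forelimb level, HOXC8 is needed for motor pools of the forelimb, HOXC9 sets thoracic identity by repressing limb-level Hox genes, and HOXC10 belongs to lumbar levels. The other members pattern the trunk skeleton and its neural and mesodermal derivatives.

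The promoters of the central genes were mostly bare in EBs and held short domains afterwards. A promoter domain was present for 3 of the 8 genes in EBs (Hoxa7, Hoxb7 and Hoxd8), for 8 in progenitors, for 7 each in No Dox, iHoxc6 and iHoxc10, and for 6 in iHoxc9. Over all 21827 protein-coding genes, the shares with a promoter domain were 66.2%, 63.5%, 62.6%, 62.9%, 60.0% and 59.6% for EBs, progenitors, No Dox, iHoxc6, iHoxc9 and iHoxc10. With any overlap counted, the EB count was thus below the background and the later counts above it. With domains of at least 150 bp only, the counts were 2 in EBs, 3 each in progenitors and iHoxc9, and 5 each in No Dox, iHoxc6 and iHoxc10. The background at that width was not computed. Covered promoter sequence added up to 993 bp in EBs, 2521 bp in progenitors, 2682 bp in No Dox, 2740 bp in iHoxc6, 1127 bp in iHoxc9 and 3478 bp in iHoxc10. Relative to No Dox, iHoxc9 held 0.420 times the covered bases, where all coding promoters held 0.687 times. The iHoxc10 list held 1.30 times, where all coding promoters held 0.769 times, and the ratio of iHoxc6 was 1.02 against 0.838. With the coding exons of Hoxc6 left out, where reads of the Hoxc6 transgene also map, the iHoxc6 ratio was 0.895, below No Dox, and 6 genes in place of 7 held a promoter domain in iHoxc6. By sum, the iHoxc9 value was the lowest and the iHoxc10 value the highest of the 4 day 4 lists. Medians per gene were 310 bp in No Dox, 286 bp in iHoxc10, 267 bp in iHoxc6 and 62 bp in iHoxc9. The iHoxc10 sum came mostly from Hoxb7 (1411 bp) and Hoxd8 (989 bp). Over the whole lists, the median domain width was 212.5 bp in iHoxc10, 155 bp in No Dox, 145 bp in iHoxc9 and 129 bp in iHoxc6. The plot of promoter coverage by gene and group shows each of these values.

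**Figure D1:**
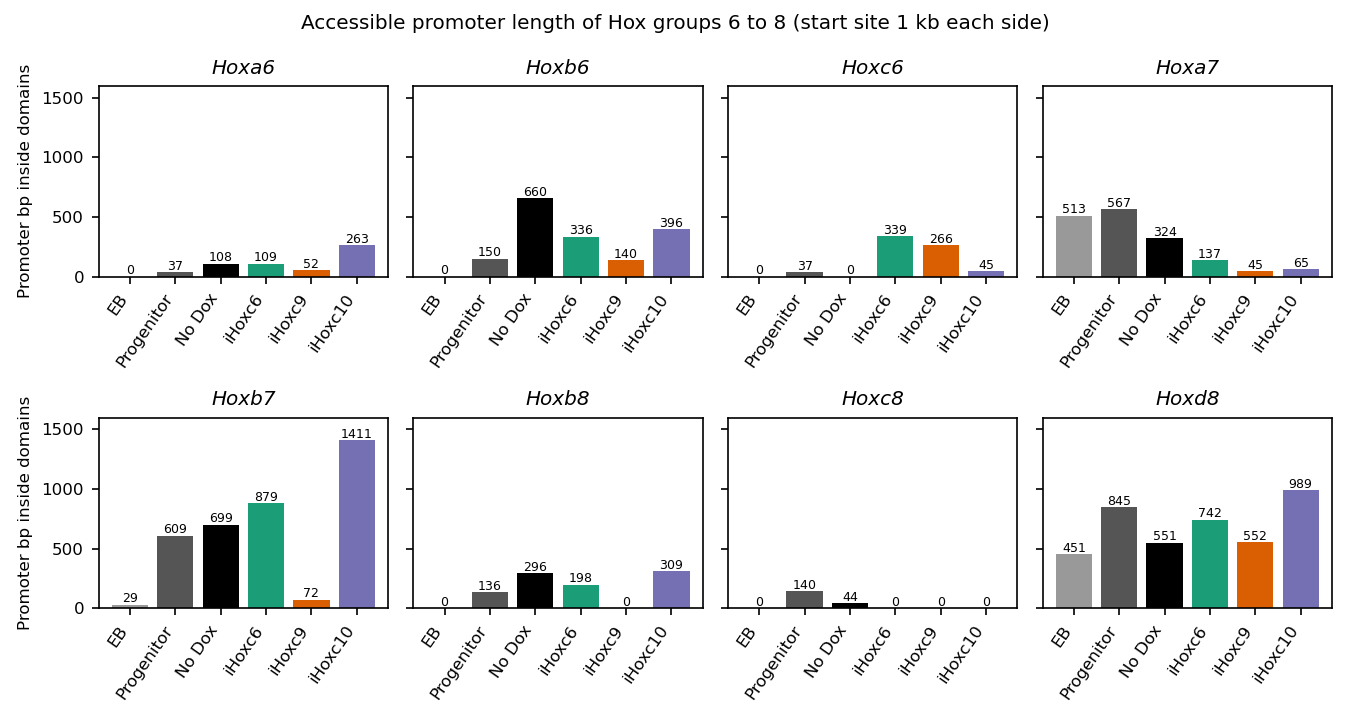
Covered bases in the 2001 bp promoter window of each gene (bp, vertical axis) in the 6 domain lists (colours), with 1 pooled list per group and therefore no error bars. Hoxb7 reached 1411 bp in iHoxc10 and 72 bp in iHoxc9, whereas Hoxc8 held 140 bp in progenitors, 44 bp in No Dox and none in the other lists.

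Covered promoter bases were compared gene by gene at a 1.5-fold limit. From EBs to progenitors, 7 of 8 genes were higher and 0 lower, where 21.7% of coding genes with a domain in either list were higher and 14.5% lower. Only Hoxa7 stayed within the limit. From progenitors to No Dox, Hoxa6, Hoxb6 and Hoxb8 were higher (3 of 8, background 15.6%), and Hoxa7, Hoxc6, Hoxc8 and Hoxd8 were lower (4 of 8, background 9.98%). Between No Dox and iHoxc6, Hoxc6 alone was higher (background 7.45%) and Hoxa7, Hoxb6 and Hoxc8 were lower (3 of 8, background 21.5%). The Hoxc6 promoter domain in iHoxc6 was 100% coding sequence, so without the coding exons 0 genes were higher. Hoxc6 was also the only gene that was higher in iHoxc9 (background 3.25%), and the 6 genes Hoxa6, Hoxa7, Hoxb6, Hoxb7, Hoxb8 and Hoxc8 were lower (background 46.6%). In iHoxc10, Hoxa6, Hoxb7, Hoxc6 and Hoxd8 were higher than in No Dox (4 of 8, background 3.56%) and Hoxa7, Hoxb6 and Hoxc8 lower (3 of 8, background 33.0%). Set side by side, iHoxc10 exceeded iHoxc9 at 5 of the 7 genes with a domain in either list (background 19.6%), and Hoxc6 was lower (1 of 7, background 8.47%). With 8 genes, a single gene moves such a share by 12.5 points.

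Group 6 genes had bare promoters in EBs. The promoter of Hoxa6 (chr6:52206288-52208722, minus strand), a gene of the trunk region, held 0 bp in EBs, 37 bp in progenitors, 108 bp in No Dox, 109 bp in iHoxc6, 52 bp in iHoxc9 and 263 bp in iHoxc10. The TSS itself was covered in iHoxc10 alone. The 200 bases upstream of the TSS are shown because iHoxc10 covered them throughout. TAAT, the core of many Hox sites, matched 2 times on either strand, in 1 overlapping run of capitals, and TTTAT, part of the sites of posterior HOX proteins, matched 0 times (chr6:52208723-52208922, minus strand).

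Hoxa6 upstream: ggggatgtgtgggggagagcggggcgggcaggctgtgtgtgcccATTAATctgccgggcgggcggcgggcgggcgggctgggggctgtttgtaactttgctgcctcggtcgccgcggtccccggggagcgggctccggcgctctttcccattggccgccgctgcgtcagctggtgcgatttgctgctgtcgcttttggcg

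Hoxb6 (chr11:96299171-96301568, plus strand) held 0 bp in EBs, 150 bp in progenitors, 660 bp in No Dox, 336 bp in iHoxc6, 140 bp in iHoxc9 and 396 bp in iHoxc10. Its largest promoter domain was in No Dox and covered the TSS, and iHoxc6 and iHoxc10 covered the TSS too. In iHoxc9 the covered bases lay upstream of the TSS only.

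Hoxc6 (chr15:103009573-103011881, plus strand), the native copy of a gene induced in this series, differed from the other group 6 genes. It held 0 bp in EBs, 37 bp in progenitors, 0 bp in No Dox, 339 bp in iHoxc6, 266 bp in iHoxc9 and 45 bp in iHoxc10. No list covered its TSS. In iHoxc6, the domains ran from 61 to 399 bp and from 1261 to 1502 bp after the TSS, where coding sequence lies from 33 to 432 bp (exon 1) and from 1161 to 1465 bp (exon 2). The intron of 728 bp between these exons was not covered at all in iHoxc6. Of the first iHoxc6 domain 100% was coding and of the second 84.7%. Reads of the transgene, which lies at another locus, map to these exons and cannot be told apart from reads of the endogenous gene, so the iHoxc6 value does not measure the endogenous locus alone. The iHoxc9 domain was placed otherwise, at 357 to 622 bp, with 76 bp of coding sequence (28.6%) and 190 bp in the intron. Its origin was not tested. Coding sequence of Hoxc6 (705 bp) was covered over 544 bp in iHoxc6, 76 bp in iHoxc9 and 0 bp in the other 4 lists.

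Of the group 7 genes, Hoxa7 was covered most in the early lists and Hoxb7 in iHoxc10. Hoxa7 (chr6:52214498-52217505, minus strand) was covered over 513 bp in EBs, 567 bp in progenitors, 324 bp in No Dox, 137 bp in iHoxc6, 45 bp in iHoxc9 and 65 bp in iHoxc10. It was the gene with the most covered promoter bases in EBs, and the TSS was covered in EBs, progenitors, No Dox and iHoxc6 but not in iHoxc9 or iHoxc10. Hoxb7 (chr11:96286623-96290162, plus strand), best known from the developing kidney, held 29 bp in EBs, 609 bp in progenitors, 699 bp in No Dox, 879 bp in iHoxc6, 72 bp in iHoxc9 and 1411 bp in iHoxc10. The iHoxc10 domain covered the TSS and ran from -341 to 1145 bp relative to it, past the edge of the promoter window. In iHoxc9 the 72 bp were split, with 38 bp upstream and 34 bp downstream, and the TSS was not covered. The ratio to No Dox was 2.02 in iHoxc10 and 0.103 in iHoxc9. For Hoxa6 the same ratios were 2.44 and 0.481.

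Group 8 genes were covered downstream of the TSS in the HoxB and HoxD clusters and upstream in HoxC. Hoxb8 (chr11:96281905-96285315, plus strand), which acts in the posterior nervous system and in blood cells, held 0 bp in EBs, 136 bp in progenitors, 296 bp in No Dox, 198 bp in iHoxc6, 0 bp in iHoxc9 and 309 bp in iHoxc10. Every one of these bases lay downstream of the TSS. Hoxd8 (chr2:74704615-74706812, plus strand) was covered in all lists, with 451 bp in EBs, 845 bp in progenitors, 551 bp in No Dox, 742 bp in iHoxc6, 552 bp in iHoxc9 and 989 bp in iHoxc10, again with no covered base upstream. Its gene body was covered over 22.7% in EBs and 65.9% in iHoxc10, and the 4.41 kb towards Hoxd9 held 0 bp in every list. Hoxc8 (chr15:102990607-102993821, plus strand) held 140 bp in progenitors, 44 bp in No Dox and 0 bp in EBs, iHoxc6, iHoxc9 and iHoxc10, and its gene body held 0 bp in all 6 lists.

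Over the 8 promoters and 6 lists, 9748 covered bases lay downstream and 3793 bases upstream of a TSS. The TSS base was inside a domain for 1 gene in EBs, for 2 in progenitors, for 0 in iHoxc9 and for 3 in each of No Dox, iHoxc6 and iHoxc10. These counts use 1 TSS per gene, and the TSS base counts as downstream. Among coding transcripts of the basic GENCODE set, Hoxa7 and Hoxd8 have 3 annotated starts each, and Hoxb6 and Hoxb8 have 2 each. Hoxa7 and Hoxb8 have further annotated coding starts outside that set. Another Hoxd8 start, at chr2:74704905, lay inside a domain of every list except that of EBs. Another coding start of Hoxa7, at chr6:52221854, lay inside a domain of all 6 lists. The count of 0 in iHoxc9 and the split into upstream and downstream thus depend on the transcript used.

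The body of Hoxb8 (3411 bp) was covered over 41 bp in EBs, 436 bp in progenitors, 766 bp in No Dox, 942 bp in iHoxc6, 171 bp in iHoxc9 and 897 bp in iHoxc10. The body of Hoxb7 (3540 bp) was covered over 29, 463, 772, 708, 34 and 1146 bp in the same order of lists, and that of Hoxb6 (2398 bp) over 32, 145, 581, 68, 0 and 441 bp. In the HoxB cluster EBs and iHoxc9 were thus the least covered lists in each gene body. Hoxa6 differed, since its body held 63 bp in iHoxc10 and 0 bp in the other 5 lists. In EBs, the body of Hoxc6 held a domain of 197 bp in its 3' untranslated region that no other list had, and the body held 0 bp in progenitors, No Dox and iHoxc10.

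Summed over promoters, gene bodies and stretches, the 75171 bp of these windows were covered over 2717 bp in EBs, 5314 bp in progenitors, 6683 bp in No Dox, 6030 bp in iHoxc6, 3196 bp in iHoxc9 and 6851 bp in iHoxc10. The clusters did not share this order. HoxB windows held 505, 1925, 3376, 3149, 903 and 3782 bp in the same sequence of lists, and HoxA windows held 979, 1443, 1685, 1058, 570 and 1021 bp. Thus iHoxc9 had 0.267 times the No Dox bases in HoxB and 0.338 times in HoxA. In HoxC, with 734, 866, 760, 810, 660 and 600 bp, the ratio was 0.868, and for Hoxd8 it was 1.23. Over the whole lists the ratio was 0.597, so the HoxA and HoxB windows lay below it and the HoxC and HoxD windows above it. HoxB windows in iHoxc10 held 4.19 times the bases of iHoxc9. In iHoxc6, 544 of the 810 bp in HoxC were coding sequence of Hoxc6, where reads of the transgene also map. The rest was 229 bp in the stretches and 37 bp of noncoding Hoxc6 sequence. Leaving out these coding exons changed the iHoxc6 ratio to No Dox over all windows from 0.902 to 0.821.

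Domains of the 6 lists that overlapped were joined into 42 sites, of which 10 lay in HoxA, 19 in HoxB, 12 in HoxC and 1 at Hoxd8. In all 6 lists, 9 of the 42 sites were present (21.4%, where 11.2% of 218562 sites genome-wide were), and 20 were present in 1 list (47.6%, background 63.7%). Sites in all 6 lists had a median width of 699 bp and sites in 1 list of 42.5 bp, and 13 of the 20 single-list sites were under 50 bp. The plot of site width against the number of lists shows this. A wide site has more room to be met by another list, so width and sharing are not independent. No Dox and iHoxc6 held 6 single-list sites each, EBs 4, progenitors 2, and iHoxc9 and iHoxc10 held 1 each. Between EBs and progenitors, 11 sites were present in progenitors but not in EBs, and 4 in EBs but not in progenitors. No site was present in all 3 induced lists and absent from No Dox, 8 were in No Dox and in none of the induced lists, and 11 were in No Dox and all 3 induced lists. Genome-wide shares for these counts between lists were not computed, so they cannot be read as particular to these genes. The No Dox list covered the most sequence, with 29.7 Mb against 24.8 Mb in iHoxc6, 17.8 Mb in iHoxc9 and 20.1 Mb in iHoxc10.

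**Figure D2:**
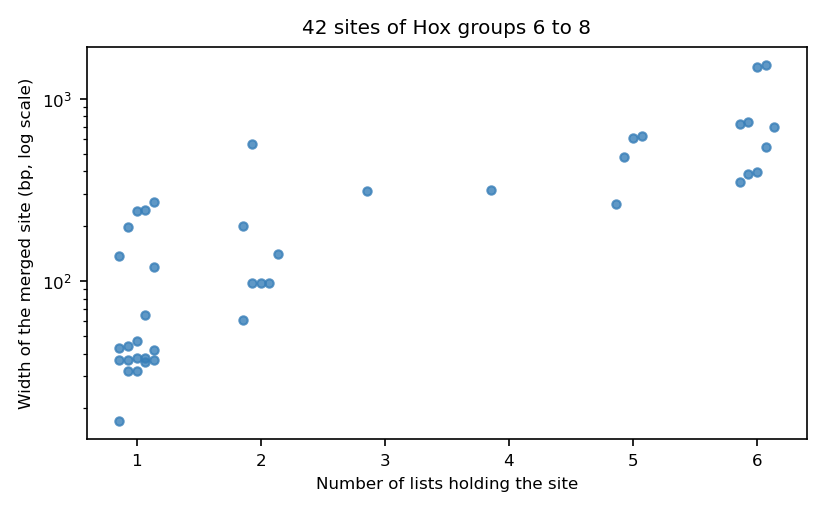
Width of each of the 42 merged sites (bp, log scale) against the number of lists that held it, with 1 point per site, moved slightly sideways for legibility. The 9 sites held by all 6 lists were 349 to 1534 bp wide, and the 20 sites held by 1 list were 17 to 271 bp wide.

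**Figure D3:**
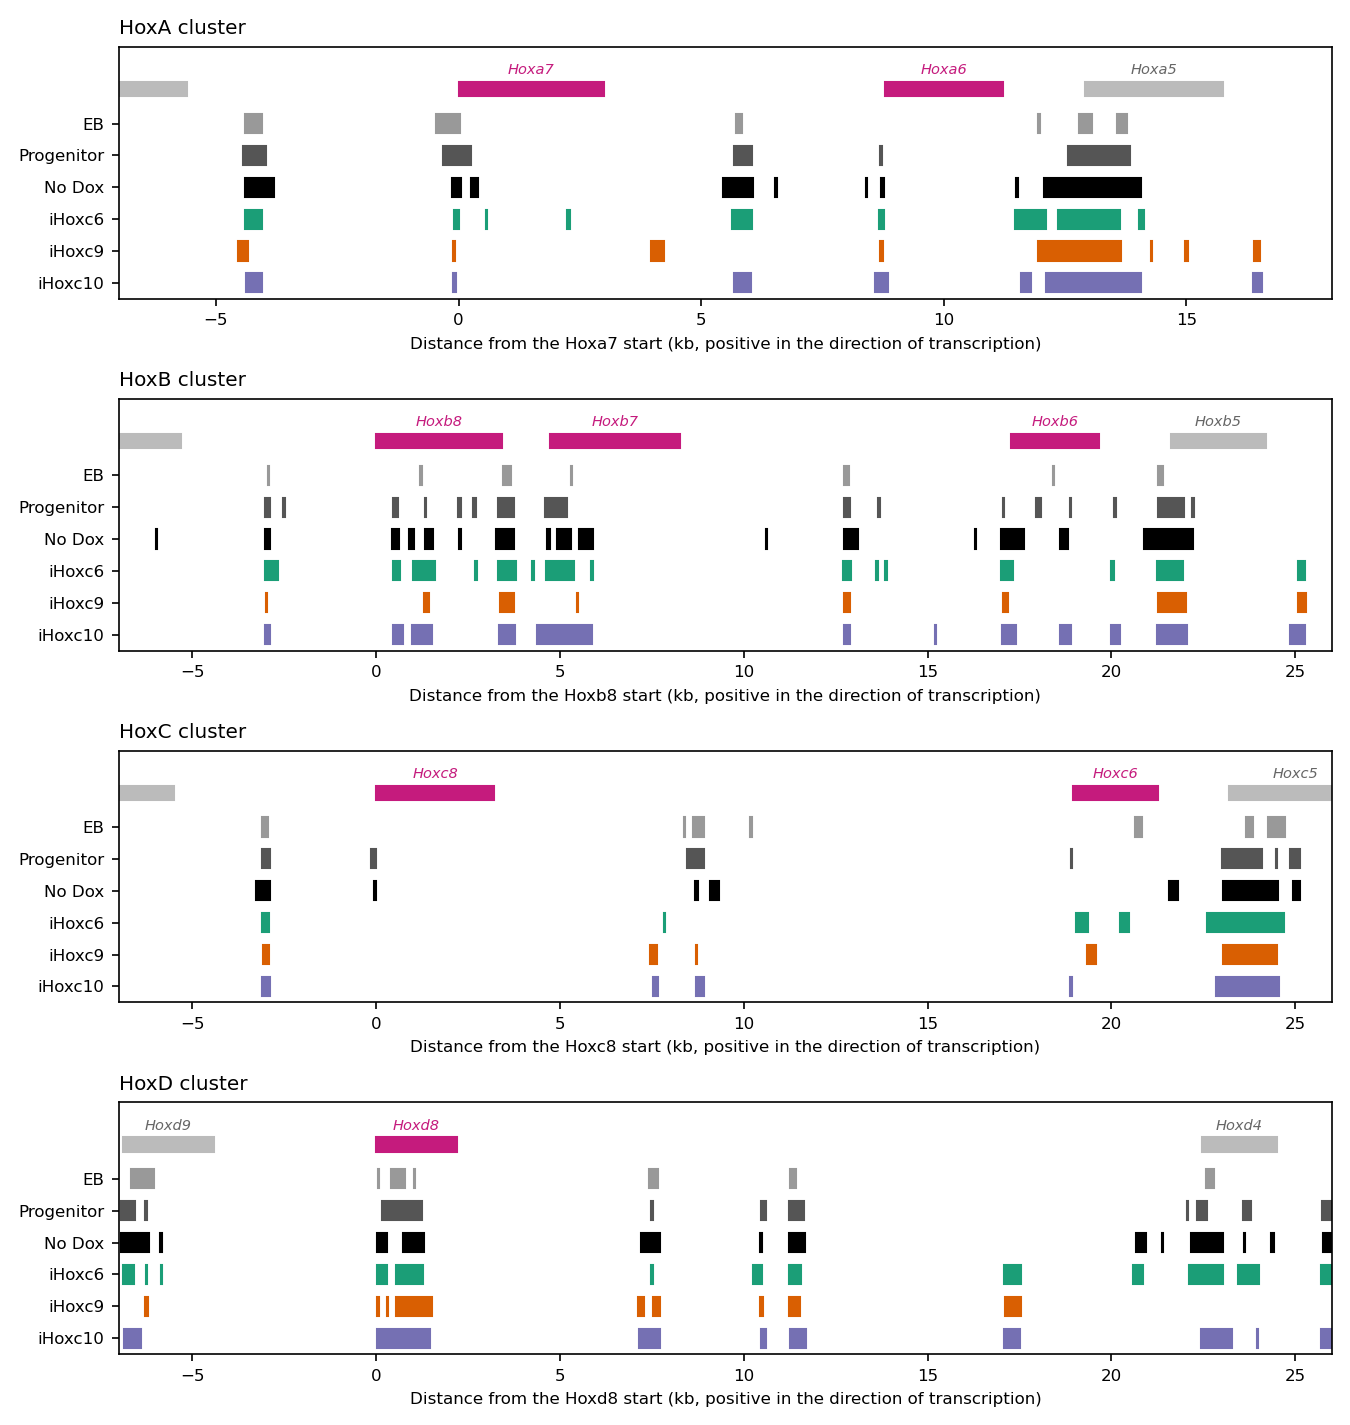
Domains of the 6 lists (rows) around the genes of groups 6 to 8 in each cluster, drawn to scale as distance in kb, with gene bodies marked. Hoxc8 has no domain in its gene body in any list, and the Hoxb7 promoter carries a domain of 1487 bp in iHoxc10, where iHoxc9 has a domain of 34 bp and the edge of an upstream one.

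Sites in all 6 lists were joined by chains of overlap, and a base inside the domains of all 6 lists was found at 6 of the 9. At 3 sites, all in HoxB (the site from Hoxb9 to Hoxb8, a site inside Hoxb8 and the Hoxb7 promoter), no base was common to all lists. At least 100 such bases were found at 4 sites. The site that spans the end of Hoxb8, upstream of Hoxb7, had 227 common bases, all past the end of Hoxb8, and domains of 227 bp in EBs, 429 bp in progenitors, 507 bp in No Dox, 464 bp in iHoxc6, 384 bp in iHoxc9 and 440 bp in iHoxc10. The site between Hoxb7 and Hoxb6, 4.37 kb before the Hoxb6 TSS, had 134 common bases and domains of 136, 166, 372, 216, 171 and 166 bp, and the domains of progenitors and iHoxc10 had identical edges. The site between Hoxc9 and Hoxc8 had 126 common bases and domains of 166, 221, 398, 192, 167 and 209 bp. At Hoxd8 105 bases were common, which are not shown because that site overlaps a coding exon. The other 3 cores, a choice made after the data were seen, are shown as the most constant accessible sequence outside such sites. TAAT and TTTAT matches on either strand are in capitals (chr11:96285344-96285570, chr11:96294631-96294764 and chr15:102987528-102987653, plus strand).

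Hoxb7 site core: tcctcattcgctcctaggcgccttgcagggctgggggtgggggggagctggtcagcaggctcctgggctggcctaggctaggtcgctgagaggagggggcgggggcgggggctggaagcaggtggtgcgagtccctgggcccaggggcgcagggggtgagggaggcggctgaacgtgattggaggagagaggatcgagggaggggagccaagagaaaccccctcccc
Hoxb6 site core: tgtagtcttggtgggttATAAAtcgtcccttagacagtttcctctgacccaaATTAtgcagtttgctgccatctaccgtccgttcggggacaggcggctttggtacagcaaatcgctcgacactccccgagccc
Hoxc8 site core: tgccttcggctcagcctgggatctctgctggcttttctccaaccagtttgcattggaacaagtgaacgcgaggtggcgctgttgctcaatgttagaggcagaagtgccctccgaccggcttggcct

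Of the cores shown, only that near Hoxb6 held either motif. The central 200 bp of the sites were searched for the CTCF core consensus, a mark of boundaries between cluster domains, on both strands. It was found at 0 of 42 sites without mismatch, where 2.48% of all sites genome-wide held it, and with up to 2 mismatches, a search chosen after the data were seen, at 7 of 42 sites (16.7%, against 28.7%). Among the 9 sites held in all 6 lists, 1 site, that between Hoxc9 and Hoxc8, held such a match in its central 200 bp (11.1%, against 38.5% of sites in all 6 lists genome-wide). Over whole sites, other sites of the 9 held matches not wholly inside that window. These had 1 mismatch between Hoxa7 and Hoxa9 and between Hoxb9 and Hoxb8, and 2 between Hoxb7 and Hoxb6 and at Hoxd8. Not every list covered these matches. Those with 1 mismatch had 0 bp inside the iHoxc9 domains, and the match between Hoxb9 and Hoxb8 had 4 bp inside the EB domain. The match at Hoxd8 had 0 bp inside the EB domains. The background for whole sites with mismatches was not computed. The site between Hoxa7 and Hoxa9 also holds the annotated start of another coding Hoxa7 transcript (chr6:52221854). At this site the domain of iHoxc9 was shifted and overlapped the others in part, with 46 bp common to all 6 lists. It ran from -4545 to -4344 bp relative to the Hoxa7 TSS, where EBs had -4397 to -4051 bp and iHoxc10 had -4389 to -4048 bp.

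Between Hoxa6 and Hoxa7 a site 3.02 kb upstream of Hoxa6 held 119 bp in EBs, 365 bp in progenitors, 608 bp in No Dox, 407 bp in iHoxc6, 0 bp in iHoxc9 and 351 bp in iHoxc10. In the same interval iHoxc9 held a domain of 271 bp that no other list had. Between Hoxc8 and Hoxc6 a site held 194 bp in iHoxc9 and 127 bp in iHoxc10, and 0 bp in the other 4 lists. The comparison of sites by sequence was chosen after the data were seen, and these sites were the most alike among 67 pairs of sites from different clusters. Their best local alignment scored 38 (next best 17, median 12), with 74 of 108 columns identical (68.5%). The aligned stretches ran in the same direction relative to the genes and lay whole inside the iHoxc9 domains, over 107 bp in HoxA (chr6:52213364-52213470, minus strand) and 108 bp in HoxC (chr15:102998099-102998206, plus strand). The iHoxc10 domain covered 70 bp of the HoxC stretch. Both lay just upstream of annotated transcript starts, 25 to 28 bp before those of transcripts of Gm28308 and Hoxa3 and 51 bp before that of a longer Hoxc6 transcript. The HoxA stretch is also part of an exon of the antisense transcript Hoxaas3. Bases identical between the sequences are in capitals.

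HoxA stretch: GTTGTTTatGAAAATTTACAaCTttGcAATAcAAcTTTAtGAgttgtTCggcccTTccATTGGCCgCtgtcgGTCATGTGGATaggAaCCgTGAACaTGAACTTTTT
HoxC stretch: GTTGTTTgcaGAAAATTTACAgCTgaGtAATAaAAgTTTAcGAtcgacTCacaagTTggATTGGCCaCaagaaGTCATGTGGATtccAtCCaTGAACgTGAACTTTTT

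Another site between Hoxc8 and Hoxc6 was present in No Dox alone, over 246 bp (chr15:102999679-102999924). It is shown because it was the widest single-list site of No Dox and holds TAAT 4 times and TTTAT 1 time, in capitals on either strand.

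No Dox site: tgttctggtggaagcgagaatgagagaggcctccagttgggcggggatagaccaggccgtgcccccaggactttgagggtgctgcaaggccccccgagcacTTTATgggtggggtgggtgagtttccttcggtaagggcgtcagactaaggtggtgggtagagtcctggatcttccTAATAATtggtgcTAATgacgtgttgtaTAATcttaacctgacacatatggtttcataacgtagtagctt

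Its neighbour, a site of 479 bp, held 292 bp in EBs, 468 bp in progenitors, 72 bp in No Dox, 0 bp in iHoxc6, 33 bp in iHoxc9 and 219 bp in iHoxc10. Over the whole 15.8 kb between Hoxc8 and Hoxc6, iHoxc6 held 37 covered bases. For the whole sites, TAAT was present in 20 of 42 (47.6%, background 40.3% of all sites) and TTTAT in 15 of 42 (35.7%, background 25%). In the central 200 bp, where lengths are equal, the order was the reverse, with TAAT at 23 of 42 sites (54.8%, background 59.8%) and TTTAT at 13 of 42 (31.0%, background 36.7%). The longer motif TGATTTAT, which PBX and posterior HOX proteins bind together, was in 0 of 42 sites (background 1.28%). Promoter sequences from RefSeq were matched for 4 of the 8 genes.

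Neighbouring groups of the clusters differed from these genes. Mean promoter coverage of groups 6 to 8 was lowest in EBs (6.20%) and iHoxc9 (7.04%), intermediate in progenitors (15.7%), No Dox (16.8%) and iHoxc6 (17.1%), and highest in iHoxc10 (21.7%). For EBs, progenitors, No Dox, iHoxc6, iHoxc9 and iHoxc10 in turn, groups 4 and 5, the anterior neighbours, held 11.5%, 50.1%, 66.9%, 61.4%, 45.8% and 59.8%, and groups 9 and 10, the posterior neighbours, 10.8%, 7.95%, 15.5%, 9.09%, 1.81% and 14.7%. By these means, groups 6 to 8 lay between them in every list except that of EBs, where they were below both. By medians, groups 6 to 8 were below both also in progenitors (7.25%, against 8.40% for groups 9 and 10) and in iHoxc10 (14.3%, against 18.3%). Reads of the transgenes may also add to groups 9 and 10, which was not tested. Domains covered 468 coding and 1 noncoding bp of Hoxc9 in iHoxc9 and 468 coding and 5 noncoding bp of Hoxc10 in iHoxc10. These bases were not left out. Lists without a Hoxc9 transgene also covered Hoxc9 coding sequence, over 233 bp in EBs, 489 bp in progenitors, 140 bp in No Dox and 45 bp in iHoxc6. Coding sequence of Hoxc10 held 0 bp in every list except iHoxc10.

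**Figure D4:**
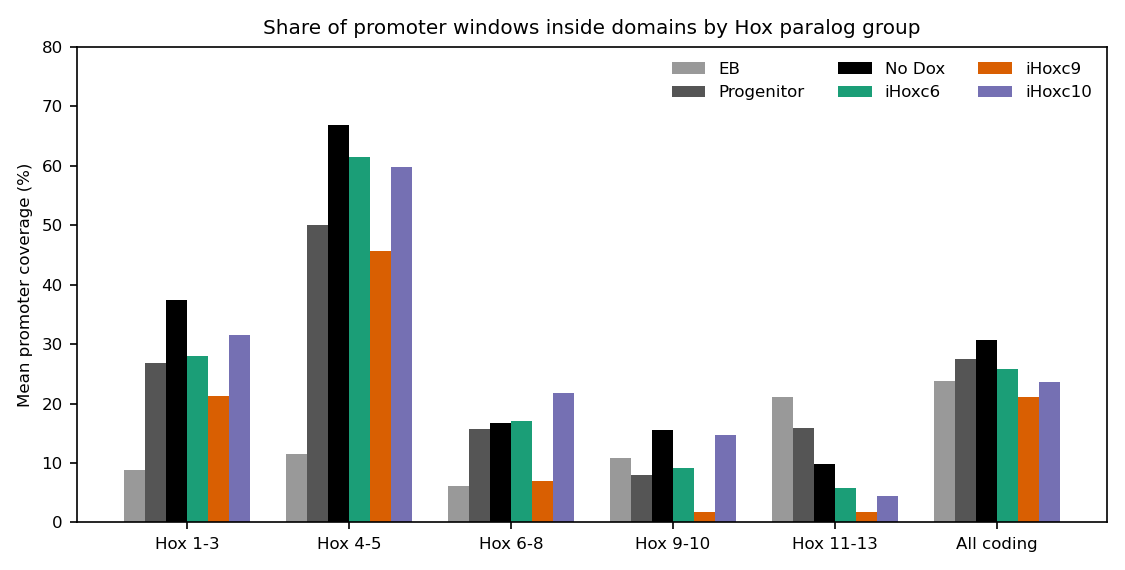
Mean share of the promoter window inside domains (percent, vertical axis) for Hox genes grouped by paralog number and for all coding genes, by list (colours). Groups 6 to 8 held 21.7% in iHoxc10 and 7.04% in iHoxc9, and groups 4 and 5 held 59.8% and 45.8%.

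Single genes outside the set whose promoter coverage over the 6 lists was nearest were Hoxb1 for Hoxc8 (mean absolute difference 0.525 points), Hoxb9 for Hoxb6 (2.07 points), Hoxa10 for Hoxa6 (2.19 points) and for Hoxb8 (5.27 points), Hoxa3 for Hoxc6 (3.55 points), Hoxd1 for Hoxd8 (7.78 points), Hoxd13 for Hoxa7 (8.34 points) and Hoxd4 for Hoxb7 (11.1 points). Hoxb7 was thus the farthest from its nearest gene and Hoxc8 the closest. Among genes that act on the clusters, the RA receptor gene Rarb held a promoter domain in each list, with 564 bp in EBs and 1271 bp in No Dox, whereas genes with a promoter domain numbered 8 of 8 in EBs and 3 of 8 in iHoxc9 and in iHoxc10 over the fixed list of cluster inputs (Cdx1, Cdx2, Cdx4, Rara, Rarb, Rarg, Cyp26a1 and Gdf11). Cdx2, which drives trunk Hox genes, held 861 bp in EBs, 306 bp in progenitors, 44 bp in No Dox and 0 bp in the 3 induced lists. All 9 genes of the TALE cofactors, the Pbx, Meis and Pknox families that bind DNA with HOX proteins, held a promoter domain in every list.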

How the data were processed

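ATAC-seq was measured in 12 samples, 2 per group. Per the methods, the authors mapped paired-end reads to mm10 (GRCm38) with Bowtie2 2.2.2 and called accessible domains with DomainFinder. The submitters' processing notes also name Picard 2.8.2. Each deposited list was made from both samples of a group and holds start and end coordinates in bp, without counts, signal or p-values, and the further columns of the No Dox list are constant. Starts were read as 0-based, but no source gives the base, and a position may be off by 1 bp.

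Genes came from GENCODE M21, with the body and TSS of 1 principal coding transcript per gene. Domains were intersected with promoters (2001 bp), gene bodies and stretches, and covered bases were counted (at least 1 bp of overlap). Ratios used a limit of 1.5. Overlapping domains were joined into sites. Sequences came from RefSeq GRCm38.p6, local alignment used a match score of 1, a mismatch score of -1, a gap opening of 3 and an extension of 1. The overlap code was tested on simulated data. Python 3.11.15, NumPy 2.4.6 and Matplotlib 3.10.9 were used. No test between groups was possible and depth is unknown. The set of genes, though defined by number, and the gene lists and sites were proposed with earlier results of these data known. Named sites were those in all 6 lists, the widest site of each gene, and those of at least 150 bp in 1 day 4 list. Alternatives were other promoter widths, minimum domain widths, joining of close domains, leaving out the Hoxc6 coding exons and leaving out the No Dox list.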

Additional observations from a re-analysis of the deposited data

How the results depend on the processing

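Of 162 alternative values for 30 results, 153 kept their size within 1.5 times. That count includes alternatives that could hardly move a value. Other promoter widths left every ratio over the whole windows unchanged, because gene bodies and stretches already contain the promoters. Joining close domains left every promoter count and every ratio of covered bases unchanged. Leaving out the Hoxc6 coding exons turned the promoter ratio of iHoxc6 to No Dox from 1.02 to 0.895. In the central 200 bp the shares of sites with TAAT (54.8%) and TTTAT (31.0%) were below the background in place of above it. A promoter of 2 kb on each side raised the EB count of genes with a promoter domain from 3 to 6. Leaving out domains under 150 bp lowered that count from 3 to 2 in EBs, from 8 to 3 in progenitors and from 6 to 3 in iHoxc9. It also lowered the count of groups 9 and 10 in iHoxc9 from 3 to 1. The number of sites fell from 42 to 21 and the sites in all 6 lists from 9 to 4. With 500 bp on each side the promoter ratio of iHoxc9 to No Dox was 0.257 instead of 0.420. Allowing 2 mismatches in the central 200 bp, chosen after seeing the data, raised the sites with a CTCF match from 0 to 7. Leaving out the No Dox list, also chosen after seeing the data, left 9 sites in every remaining list. The cause of these changes was not tested beyond the construction of each alternative. The lists are pooled, so leaving out a replicate could not be run, and read depth is unknown. No paired analysis was possible because each list pools both replicates.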

Other observations

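Between Hoxd8 and Hoxd4, outside the windows of the report and singled out after its values were seen, a site in an intron of Hoxd3 that also holds the annotated start and part of the first exon of a coding Hoxd4 transcript (chr2:74721702-74722155) was held by the 3 induced lists and by no other list. Its domains measured 454 bp in iHoxc6, 441 bp in iHoxc9 and 412 bp in iHoxc10, and 0 bp in EBs, progenitors and No Dox. Within the windows of groups 6 to 8, 0 of 42 sites had this pattern. Its share over all sites genome-wide was not computed, so no contrast can be drawn. A site between Hoxc6 and Hoxc5 held 251 bp in No Dox and 0 bp in each of the other lists.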
